A study of Mus musculus with 24 samples.

Results

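Killer cell lectin-like receptors are the surface receptors through which natural killer (NK) cells read other cells, and a few of them are also made by myeloid cells. Here they were followed through spleen myeloid-derived suppressor cells (MDSCs), immature myeloid cells that accumulate in tumour-bearing mice and restrain T cells. Every gene whose symbol begins with Klr and then a letter from a to k was taken from the deposited table, which gave 37 genes of 23479. They are 21 Klra genes, 6 Klrb1 genes, 3 Klrc genes and 7 others (Klrd1, Klre1, Klrg1, Klrg2, Klri1, Klri2 and Klrk1). The choice used symbols only and no measured value.

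The receptors share a C-type lectin fold, sit in the membrane as dimers and are mostly encoded side by side in the NK gene complex. The Klra genes encode the Ly49 receptors, most of which bind MHC class I and inhibit the cell through phosphatases such as SHP-1, while a few activate it through the adaptor DAP12. The Klrb1 genes encode the NKR-P1 receptors, which recognise related lectin-like proteins of the Clec2 family. Klrd1 encodes CD94, the partner of the NKG2 chains made by the Klrc genes, and that pair reads the non-classical class I molecule Qa-1. Klrk1 encodes NKG2D, an activating receptor for stress-induced ligands such as Raet1 proteins, H60 and MULT1. Ly49B, encoded by Klra2, and Ly49Q, encoded by Klra17, are known from myeloid cells, and Ly49Q also from plasmacytoid dendritic cells.

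All mice carried B16 melanoma, a transplantable mouse tumour line, with tumours above 25 mm2 when treatment began. At 7 days after treatment the spleens were sorted, to a purity above 99%, into monocytic (M-MDSC) and polymorphonuclear (PMN-MDSC) fractions. The 24 libraries form 8 groups of 3, named here by treatment, genotype label and cell type. Lymphodepleted (LD) mice received cyclophosphamide and fludarabine, drugs that remove lymphocytes and dividing cells, and untreated (UT) mice did not. IL-6KO mice (KO) were of the strain B6.129S2-Il6tm1Kopf/J, in which the interleukin-6 gene is disrupted in every cell, and WT mice were C57BL/6. The groups are therefore LD KO, UT KO, LD WT and UT WT M-MDSCs, and the same 4 for PMN-MDSCs. The design text gives 3 mice for the UT KO, LD WT and UT WT groups, and no tumour-free mice were included. It is not stated whether libraries of both cell types share mice.

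The targeted gene ran against the labels. Il6 had 39, 16.2 and 45.3 normalized counts in LD KO and 41.2, 38.3 and 33.3 in UT KO M-MDSCs, against 0, 3.87 and 1.72 in LD WT and 0, 0 and 0.944 in UT WT M-MDSCs. In PMN-MDSCs the libraries labelled KO had 64.5 to 219.7 and those labelled WT 0 to 7.20. The disruption is an insertion, and reads counted along the gene do not show whether its transcript was intact. KO and WT below mean libraries so labelled, and each direction between them is a direction between labels. The sorted types were distinct in Ccr2 and Cxcr2. Ccr2, the chemokine receptor of monocytes, averaged 4424 to 6437 in the M-MDSC groups and 125 to 239 in the PMN-MDSC groups. Cxcr2, that of neutrophils, averaged 7.32 to 48.8 in the M-MDSC groups and 2726 to 6514 in the PMN-MDSC groups. Of 7 tested markers of the types, 1, Ly6c2, was not called between them in LD WT mice (limma, adjusted p 0.0579). All 7 were called in the other comparisons of the types, with S100a8 and S100a9 higher in PMN-MDSCs. In M-MDSCs these 2 rose with lymphodepletion, in WT by 5.02 ± 0.60 and 5.13 ± 0.64 on the log2 scale, and were also called in KO. Cxcr2 rose in WT M-MDSCs too (2.78 ± 0.64). Depth was 7237462 to 11193088 reads in M-MDSC libraries and 3249647 to 9999731 in PMN-MDSC libraries.

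Of the 37 genes, 29 have a transcript in the GENCODE vM21 annotation, all on chromosome 6, and 27 of those lie in 1 cluster (GRCm38, chr6:128609227-131247716). Klrg1 and Klrg2 lie on the same chromosome outside it. Klra4, Klra6, Klra12, Klra13-ps, Klra19 and Klra33 had 0 reads in all 24 libraries together, which allows up to 3 reads over the series. Klra15, Klra21, Klra22 and Klra8 had 1, 1, 5 and 8 reads over the series. Klra4 and Klra8 encode Ly49D and Ly49H, activating receptors of C57BL/6 NK cells. RefSeq lists Klra33 as a synonym of Klra4, Klra22 of Klra1 and Klra14 of the pseudogene Klra14-ps, and 5 symbols (Klra12, Klra15, Klra18, Klra19 and Klra21) matched no entry. The remaining 27 had between 14 (Klrb1-ps1) and 29886 (Klra2) reads, and 25 passed the filter of 10 normalized counts in 3 libraries for M-MDSCs and 20 for PMN-MDSCs.

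Near-identical stretches limit how far single receptor genes can be told apart. Of the 50-base stretches in its transcripts, 39.8% of those of Klra10, 38.6% of Klrc1, 36.3% of Klrc3, 33.1% of Klra8 and 31.5% of Klra9 also occur in another gene. For Klra14, Klra3 and Klra7 the share was 25.6%, 20.7% and 12.3%, and for Klrb1b, Klrb1c, Klrc2 and Klrb1a it was 27.2%, 17%, 16.3% and 9.92%. It was 0% for Klra2, Klra17, Klrb1f, Klrd1, Klrk1, Klrg1, Klrg2 and Klrb1. The read length and how the counting handled shared reads are not stated, so single values for the genes with shared stretches are uncertain.

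**Figure D1:**
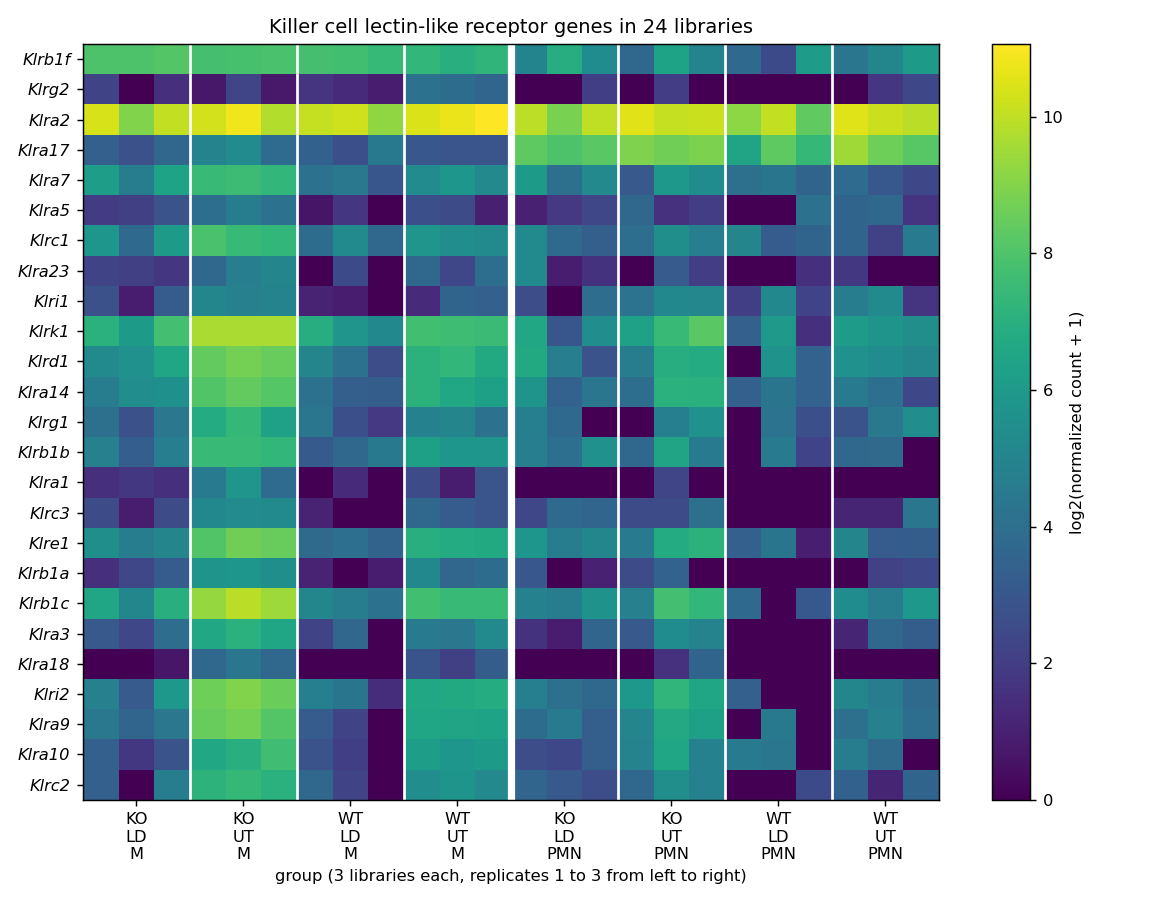
Level of the 25 genes tested in M-MDSCs, as log2(normalized count + 1), in each of the 24 libraries (columns, in groups of 3). Klra2 is high in every library, Klra17 is high in the PMN-MDSC groups, Klrb1f is high in the M-MDSC groups, and most other genes are highest in UT KO M-MDSCs, with Klrk1 at 806 to 817 normalized counts there.

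Klra2 was high in both cell types, Klra17 in PMN-MDSCs and Klrb1f in M-MDSCs, while most of the rest moved together with NK markers. Klra2, Klra17 and Klrb1f were set apart from the rest with their values in these libraries known. The windows of 250 bases before the RefSeq start of these genes (GRCm38.p6, 1 window each) are shown so that they can be set beside Klra9, a Ly49 gene of the last kind, and Klrk1. Capitals mark matches to GAGGAA or its reverse complement TTCCTC, the core of sites for ETS factors such as PU.1, to TGTGGT or ACCACA, the core for RUNX factors, and to GGTGTG or CACACC, the core for T-box factors. The windows are Klra2 (chr6:131247363-131247612, minus strand), Klra17 (chr6:129876673-129876922, minus strand), Klra9 (chr6:130193113-130193362, minus strand), Klrb1f (chr6:129045651-129045900, plus strand) and Klrk1 (chr6:129623865-129624114, minus strand), each written 5′ to 3′ on its gene's strand.
Klra2: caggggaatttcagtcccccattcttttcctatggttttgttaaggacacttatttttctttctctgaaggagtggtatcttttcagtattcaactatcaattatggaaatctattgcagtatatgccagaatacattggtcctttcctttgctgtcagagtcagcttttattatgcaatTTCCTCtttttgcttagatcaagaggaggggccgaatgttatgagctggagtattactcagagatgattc
Klra17: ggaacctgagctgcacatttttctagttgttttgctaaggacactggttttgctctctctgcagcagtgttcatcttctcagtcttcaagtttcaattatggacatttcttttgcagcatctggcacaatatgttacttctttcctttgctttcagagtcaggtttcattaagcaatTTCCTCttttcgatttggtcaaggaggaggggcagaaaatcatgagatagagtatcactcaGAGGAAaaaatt
Klra9: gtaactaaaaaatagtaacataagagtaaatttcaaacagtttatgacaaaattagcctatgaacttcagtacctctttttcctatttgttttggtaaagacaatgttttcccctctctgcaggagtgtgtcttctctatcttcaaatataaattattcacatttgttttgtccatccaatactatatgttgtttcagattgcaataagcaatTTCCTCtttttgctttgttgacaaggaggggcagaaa
Klrb1f: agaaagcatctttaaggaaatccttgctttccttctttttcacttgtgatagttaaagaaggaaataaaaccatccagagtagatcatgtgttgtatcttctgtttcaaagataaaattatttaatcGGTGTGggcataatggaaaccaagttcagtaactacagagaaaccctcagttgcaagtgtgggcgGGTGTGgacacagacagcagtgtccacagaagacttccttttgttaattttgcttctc
Klrk1: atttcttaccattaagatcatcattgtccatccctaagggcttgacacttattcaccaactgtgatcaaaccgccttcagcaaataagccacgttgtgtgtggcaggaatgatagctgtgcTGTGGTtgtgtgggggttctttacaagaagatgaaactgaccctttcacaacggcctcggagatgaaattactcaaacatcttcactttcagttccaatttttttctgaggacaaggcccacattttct

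The windows of Klra2 and Klra17 share 74.6% of aligned bases. Klra17 held 2 ETS matches, and Klra2 and Klra9 held 1 each. Klrb1f held 2 T-box matches and no ETS match, and Klrk1 held 1 RUNX match. Over the 28 windows of the 23 genes that have one in the RefSeq table, 17 held an ETS match, 9 a RUNX match and 5 a T-box match. Over all 32851 mouse windows of this length the shares were 23.3%, 14.0% and 16.3%. Duplicated genes share their upstream sequence, so these windows are not independent of each other. A match is a run of letters and says nothing about binding, and for Klra2, Klra9, Klrb1f and Klrk1 the span annotated in GENCODE reaches into or past the window shown.

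Klra2, which encodes the inhibitory receptor Ly49B, was the most highly counted gene of the family in every group. In M-MDSCs it had 1342, 498 and 1046 in LD KO and 1265, 1827 and 884 in UT KO libraries, and 1087, 1221 and 599 in LD WT and 1423, 1734 and 2145 in UT WT libraries (replicates 1 to 3 in order, as in every such list). In PMN-MDSCs it had 1006, 462 and 1014 in LD KO and 1506, 1089 and 1174 in UT KO libraries, and 588, 1074 and 324 in LD WT and 1484, 1174 and 973 in UT WT libraries. The ranges of the cell types overlapped widely, and the LD libraries were on average lower in all 4 pairs, without overlap in 2 of them (LD against UT WT M-MDSCs and LD against UT KO PMN-MDSCs). None of the 4 falls passed the test: the log2 change was −0.51 ± 0.35 in KO M-MDSCs, −0.91 ± 0.35 in WT M-MDSCs (limma, adjusted p 0.0903), −0.68 ± 0.37 in KO PMN-MDSCs and −1.01 ± 0.37 in WT PMN-MDSCs (adjusted p 0.0841). Without LD WT PMN-MDSC replicate 2 the last of these passed (adjusted p 0.0218). M-MDSCs and PMN-MDSCs did not differ beyond their spread either, with 0.03 ± 0.40 in UT KO and 0.55 ± 0.40 in UT WT mice, though the second passed when only the UT WT libraries were fitted (adjusted p 0.0184).

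Scaled to length, Klra2 ranked first of the 29 annotated genes in all 8 groups. Its mean was 349 to 931 normalized counts per kb of exon. Second place went to Klra17 in all 4 PMN-MDSC groups, at 160 to 396 per kb, to Klrb1f in both LD M-MDSC groups, at 98.9 to 128 per kb, and to Klrd1 in both UT M-MDSC groups, at 105 to 293 per kb. Klra2 made up 52.9% of the summed normalized count of all 37 genes in LD KO and 21.4% in UT KO M-MDSCs, and 68.4% in LD WT and 54.7% in UT WT M-MDSCs. In PMN-MDSCs its share was 44.8 to 63.1%.

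Klra17, which encodes Ly49Q, an inhibitory receptor for MHC class I, was higher in PMN-MDSCs. PMN-MDSCs had 320.0, 247 and 297 in LD KO and 487, 408 and 475 in UT KO libraries, and 86.7, 319 and 165 in LD WT and 725, 398 and 294 in UT WT libraries. M-MDSCs had 9.5, 5.67 and 11.5 in LD KO, 30.1, 39 and 13.6 in UT KO, 9.98, 5.42 and 21.6 in LD WT and 7.07, 6.66 and 6.61 in UT WT libraries. Every PMN-MDSC library was above every M-MDSC library. The log2 difference of M-MDSCs from PMN-MDSCs was −4.91 ± 0.50 in LD KO, −4.12 ± 0.50 in UT KO, −3.84 ± 0.50 in LD WT and −5.83 ± 0.50 in UT WT mice, with adjusted p from 1.92e-09 to 1.72e-06, and all 4 calls held when any 1 library was left out. Of 8 markers of plasmacytoid dendritic cells, which also make Ly49Q, 8 were called higher in M-MDSCs of LD KO, 4 of UT KO, 4 of LD WT and 3 of UT WT mice, and 1, Ly6d, was called lower in UT WT mice. Of all genes, 23.8%, 20.3%, 19.4% and 22.2% were called higher in these comparisons, in the same order, and 28.3% lower in UT WT mice. Irf8, Tcf4 and Bst2 were called higher in all 4 comparisons, and the summed count of the 8 was 2121 to 4292 in M-MDSC libraries and 248 to 1097 in PMN-MDSC libraries. Irf8 alone, at 1595 to 3398, made up most of that sum in M-MDSC libraries. Siglech was called higher in M-MDSCs under the KO label only. It had 11.8, 0.833 and 0.944 in UT WT M-MDSCs and 2.45, 10.8 and 0 in UT WT PMN-MDSCs.

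With lymphodepletion Klra17 fell in WT PMN-MDSCs by a log2 change of −1.40 ± 0.39 (adjusted p 0.0355), although the libraries overlapped. This call was lost when LD WT replicate 1 or 3 or UT WT replicate 1 or 2 was left out, with adjusted p up to 0.156, and also with edgeR and with another scaling. In KO PMN-MDSCs the 3 LD libraries were all below the 3 UT libraries, and the change of −0.67 ± 0.39 was not called. In M-MDSCs, where it was near the floor, it changed by −1.46 ± 0.54 in KO and 0.59 ± 0.54 in WT mice, neither called, though the KO change passed without UT KO replicate 3 (adjusted p 0.0440).

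Klrb1f, which encodes the receptor NKR-P1F for Clec2 proteins, was higher in M-MDSCs. Its counts were 249.8, 249.6 and 276 in LD KO and 224, 228 and 234 in UT KO M-MDSCs, and 223, 208 and 169.8 in LD WT and 161, 119.9 and 148 in UT WT M-MDSCs. PMN-MDSCs had 30.6, 119 and 40.2 in LD KO, 12.4, 85.6 and 30.7 in UT KO, 12.8, 4.64 and 68 in LD WT and 19.6, 32.4 and 65.3 in UT WT libraries. No PMN-MDSC library reached the lowest M-MDSC library. The log2 difference of M-MDSCs from PMN-MDSCs was 2.27 ± 0.68 in LD KO, 2.79 ± 0.68 in UT KO, 3.51 ± 0.68 in LD WT and 2.0 ± 0.68 in UT WT mice, all 4 called. The call in LD KO mice was lost without PMN-MDSC replicate 1 (adjusted p 0.0503), and that in UT WT mice without M-MDSC or PMN-MDSC replicate 1 (adjusted p 0.0522 and 0.0876).

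Klrb1f rose with lymphodepletion in WT M-MDSCs, by 0.48 ± 0.16 on the log2 scale, the 1 gene of the family called higher there (adjusted p 0.0459). The 3 LD libraries were all above the 3 UT libraries. The call held in 1 of 6 fits that left out a library of these groups, when LD WT replicate 3 was out, and the adjusted p was 0.0502 to 0.172 in the others. In KO M-MDSCs the 3 LD libraries were again above the 3 UT libraries, and the change of 0.17 ± 0.16 was not called. In PMN-MDSCs its log2 change was 0.70 ± 0.92 in KO and −1.03 ± 0.92 in WT mice, neither called.

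**Figure D2:**
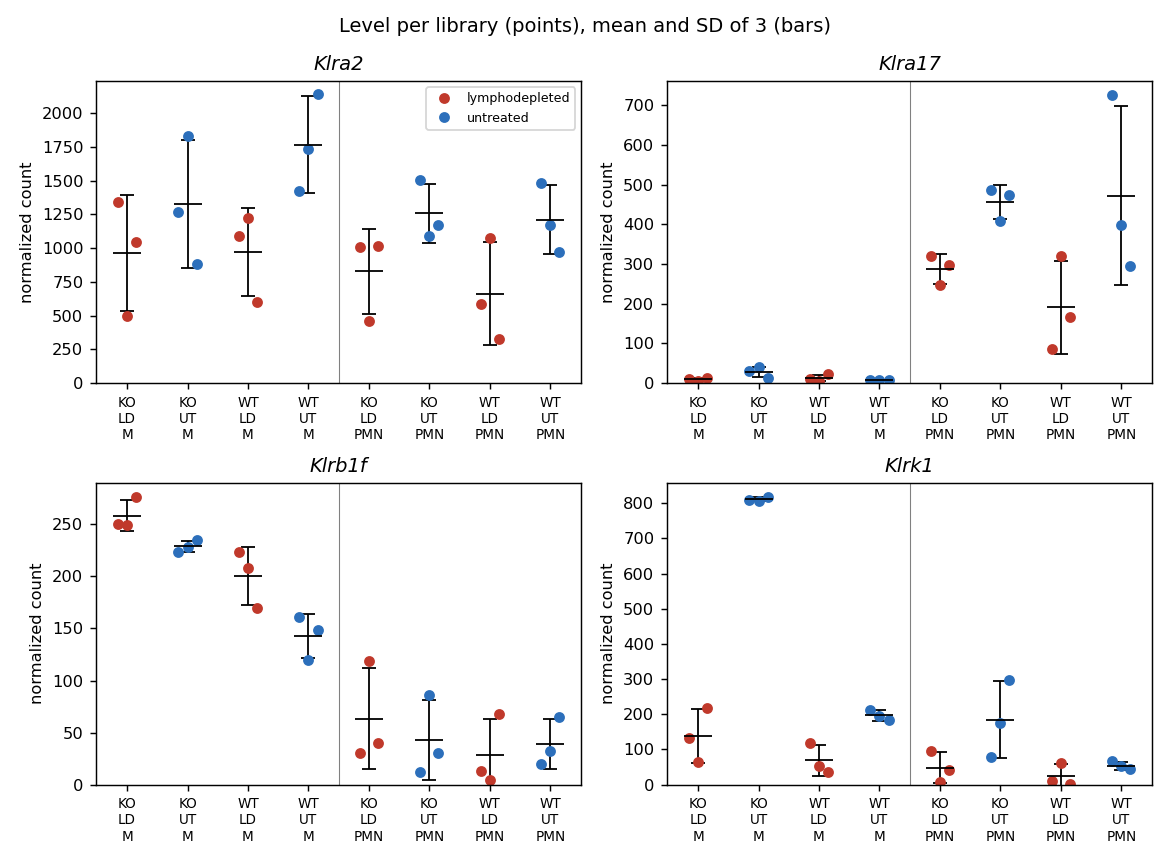
Normalized count of Klra2, Klra17, Klrb1f and Klrk1 per library as points, and group means with SD as bars (n = 3), lymphodepleted in red and untreated in blue. Klra17 lies at 86.7 to 725 in PMN-MDSCs and at 5.42 to 39.0 in M-MDSCs, and Klrk1 stands at 806 to 817 in UT KO M-MDSCs.

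Most of the remaining tested genes fell with lymphodepletion in M-MDSCs. The comparison asks how receptor transcripts in the sorted samples differed between treated and untreated mice. In KO M-MDSCs 20 of the 25 tested genes were called and all 20 were lower in LD, where 5.52% of all 11570 genes tested were called lower and 11.6% were called at all. In WT M-MDSCs 17 were called lower and Klrb1f higher, where 8.82% of all genes were called lower, 9.52% higher and 18.3% in either direction. The median log2 change of the 25 was −3.09 in KO and −2.58 in WT mice, against −0.02 and −0.07 over all genes tested. Both comparisons hold only genes that passed the filter, in part through the UT groups where they were high, and the 12 untested genes had too few reads to show a fall. With all 24 libraries in 1 fit the calls were 12 in KO and 10 in WT.

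The Ly49 receptors other than Klra2 and Klra17 gave some of the largest falls. Klra9, which encodes the inhibitory receptor Ly49I, had 20.9, 11.3 and 19.9 in LD KO against 365, 425 and 277 in UT KO M-MDSCs, and 8.32, 3.87 and 0 in LD WT against 91.1, 86.6 and 84.9 in UT WT M-MDSCs. Its log2 change was −4.30 ± 0.59 in KO and −4.63 ± 0.59 in WT mice. Klra3, which encodes the inhibitory receptor Ly49C, had 7.6, 4.05 and 14.5 in LD KO against 96.1, 133 and 89.1 in UT KO, and 3.88, 11.6 and 0 in LD WT against 23.6, 19.98 and 37.7 in UT WT libraries. The 2 receptors are close relatives, and 83.3% of the aligned bases of their upstream windows are the same. Klra10, which encodes Ly49J, had 9.5, 2.43 and 6.03 in LD KO against 98.7, 121 and 205 in UT KO, and 6.1, 3.1 and 0 in LD WT against 73, 55.8 and 64.2 in UT WT libraries. None of these 3 had an LD library that reached a UT library of its genotype label, and all were called in both, Klra3 with a log2 change of −3.59 ± 0.72 in KO and −2.78 ± 0.72 in WT, Klra10 with one of −4.42 ± 0.63 in KO and −4.40 ± 0.63 in WT. The Klra3 call in WT was lost without LD replicate 3 (adjusted p 0.0538) or UT replicate 3 (0.0759).

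Klra7, which encodes the inhibitory receptor Ly49G2, had smaller log2 changes than these, −1.69 ± 0.45 in KO and −1.60 ± 0.45 in WT M-MDSCs. It had 71.2, 25.1 and 85.7 in LD KO against 178, 191 and 158 in UT KO, and 16.6, 20.9 and 6.9 in LD WT against 40.04, 55.8 and 35.9 in UT WT libraries. No LD library reached a UT library with the same label. Klra14, a transcribed pseudogene in RefSeq, had 24.7, 42.1 and 46.5 in LD KO against 267, 343 and 286 in UT KO, and 17.2, 9.29 and 8.62 in LD WT against 138, 96.6 and 76.4 in UT WT libraries. It fell with a log2 change of −2.99 ± 0.32 in KO and −3.06 ± 0.32 in WT. Klra14 shares 20.7% of its 50-base stretches with Klra8. The calls of Klra7 were the less secure: without LD replicate 2 or UT replicate 1 or 2 in KO the adjusted p was 0.118, 0.0930 and 0.0877, and without LD replicate 3 or UT replicate 1 or 2 in WT it was 0.104, 0.0576 and 0.0917.

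At low counts, Klra1, which encodes the inhibitory receptor Ly49A, had 1.9, 2.43 and 1.81 in LD KO against 23.5, 53.5 and 13.6 in UT KO, and 0, 1.55 and 0 in LD WT against 4.71, 0.833 and 6.61 in UT WT M-MDSCs, and was called in KO (−3.15 ± 0.75). Klra18 had 0, 0 and 0.603 in LD KO against 12.4, 19.1 and 12.2 in UT KO, and 0 in all 3 in LD WT against 6.28, 3.33 and 8.49 in UT WT libraries. Klra23 had 3.8, 3.24 and 2.41 in LD KO against 12.4, 25.8 and 31.9 in UT KO, and 0, 4.64 and 0 in LD WT against 11.8, 4.16 and 15.1 in UT WT libraries. Klra18 and Klra23 were called lower under both labels, with overlapping WT libraries for Klra23, whose call in KO was lost without any 1 library of its groups (adjusted p 0.0671 to 0.156) and whose call in WT was lost without LD replicate 1 or 3 or UT replicate 1 or 3 (0.102 to 0.127). The Klra18 call in WT was lost without UT replicate 3 (0.0695). Klra5, which encodes Ly49E, was called by limma in no comparison and had group means of 0.959 to 18.6 normalized counts.

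Among the NKR-P1 genes other than Klrb1f, Klrb1c was the most abundant. It encodes NK1.1, the activating receptor used to identify C57BL/6 NK cells by antibody. It had 90.2, 33.2 and 125 in LD KO against 629, 969.6 and 702 in UT KO, and 33.3, 24 and 17.2 in LD WT against 207, 175 and 175 in UT WT M-MDSCs. Every LD library was below every UT library with the same label, and the log2 change was −3.36 ± 0.38 in KO and −2.90 ± 0.38 in WT. Klrb1b, which encodes the inhibitory receptor for Clec2d, had 27.6, 8.91 and 25.3 in LD KO against 173, 175 and 158 in UT KO, and 7.76, 12.4 and 21.6 in LD WT against 77.7, 55.8 and 53.8 in UT WT libraries. Klrb1a, which encodes NKR-P1A, had 1.9, 4.05 and 8.45 in LD KO against 51.6, 55.5 and 44.9 in UT KO, and 1.11, 0 and 0.862 in LD WT against 35.3, 11.7 and 14.2 in UT WT libraries. Neither overlapped, and Klrb1b fell with a log2 change of −3.12 ± 0.42 in KO and −2.18 ± 0.42 in WT, and Klrb1a with one of −3.31 ± 0.58 in KO and −3.60 ± 0.58 in WT. Klrb1f thus stood apart from its 3 tested relatives in these comparisons.

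CD94 and its NKG2 partners fell in KO M-MDSCs and, Klrc1 excepted, in WT M-MDSCs. Klrd1 (CD94) had 37, 47 and 89.9 in LD KO against 337, 425 and 363 in UT KO, and 32.2, 17 and 5.17 in LD WT against 137, 162 and 105 in UT WT M-MDSCs, a log2 change of −2.77 ± 0.48 in KO and −3.11 ± 0.48 in WT. Klrc1, which encodes the inhibitory chain NKG2A, had 55.1, 13 and 64.6 in LD KO against 234, 179 and 159 in UT KO, and 13.9, 37.1 and 12.1 in LD WT against 54.2, 42.5 and 38.7 in UT WT libraries. Klrc2, which encodes the activating chain NKG2C, had 9.5, 0 and 24.7 in LD KO against 143, 162 and 132 in UT KO, and 12.2, 3.87 and 0 in LD WT against 41.6, 52.5 and 35.9 in UT WT libraries. All 3 were called in KO, with Klrc1 at −2.35 ± 0.52 and Klrc2 at −4.50 ± 1.0, and Klrd1 and Klrc2 (−3.45 ± 1.0) in WT, where Klrc1 was not (−1.23 ± 0.52). Klrc3, which encodes NKG2E, had 4.75, 0.81 and 4.83 in LD KO against 35.3, 39 and 38.1 in UT KO, and 1.11, 0 and 0 in LD WT against 11.8, 8.33 and 6.61 in UT WT libraries, and was called under both labels. The Klrc1 call in KO was lost without UT replicate 1 (adjusted p 0.0589), and Klrc1 passed in WT without LD replicate 2 (0.0354). The Klrc2 call in WT was lost without LD replicate 3 or any 1 UT library (0.0744 to 0.130). Summed over the 3 Klrc genes, whose reads overlap in part, the count was 59.1 ± 41.1 in LD KO against 374 ± 42 in UT KO, and 26.8 ± 14.5 in LD WT against 97.3 ± 14.2 in UT WT M-MDSCs (SD, n = 3).

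Klrk1 (NKG2D) had 133, 64.8 and 217 in LD KO against 809, 806 and 817 in UT KO, and 119, 54.2 and 35.3 in LD WT against 212, 195 and 183 in UT WT M-MDSCs. Its log2 change was −2.71 ± 0.41 in KO and −1.66 ± 0.41 in WT, both called without overlap, and without LD WT replicate 3 the call in WT was lost (adjusted p 0.0633). Klre1, a chain without signalling motifs of its own, pairs with either Klri1, which inhibits, or Klri2, which activates. It had 44.6, 25.1 and 32 in LD KO against 268, 401 and 356 in UT KO, and 13.3, 15.5 and 10.3 in LD WT against 125, 112 and 106 in UT WT libraries, and gave the smallest adjusted p of the family in both comparisons, 3.24e-05 in KO (−3.31 ± 0.26) and 8.84e-05 in WT (−3.05 ± 0.26). Klri2 had 27.6, 8.1 and 57.9 in LD KO against 390.2, 493 and 371 in UT KO, and 26.6, 18.6 and 1.72 in LD WT against 95.8, 103 and 115 in UT WT libraries. Klri2 was called at −4.07 ± 0.73 in KO and −3.21 ± 0.73 in WT. Klri1 had 5.7, 0.81 and 8.45 in LD KO against 32.7, 27.1 and 29.9 in UT KO, and 1.11, 0.774 and 0 in LD WT against 1.57, 10.8 and 9.44 in UT WT libraries, and was called in KO (−2.67 ± 0.75), a call lost without LD replicate 2 or any 1 UT library (adjusted p 0.0655 to 0.162).

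The 2 Klrg genes, which lie outside the cluster, went separate ways. Klrg1, a receptor for cadherins on mature NK and effector T cells, had 16.1, 5.67 and 19.9 in LD KO against 110.4, 164 and 79.5 in UT KO, and 19.4, 5.42 and 2.59 in LD WT against 28.3, 31.6 and 17 in UT WT M-MDSCs. It fell with a log2 change of −3.09 ± 0.60 in KO and was not called in WT (−1.73 ± 0.60), where the libraries overlapped and it passed without LD replicate 1 (adjusted p 0.0103). Klrg2 had 3.8, 0 and 1.81 in LD KO against 0.653, 3.96 and 0.68 in UT KO, and 2.22, 1.55 and 0.862 in LD WT against 16.5, 14.2 and 11.3 in UT WT libraries. It had more reads in UT WT M-MDSCs than in the other 3 M-MDSC groups, without overlap, and it was called lower in LD WT with a log2 change of −2.58 ± 0.77. That call was lost when any LD WT library was left out (adjusted p 0.0519 to 0.102), and without a UT WT library Klrg2 was no longer tested.

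**Figure D3:**
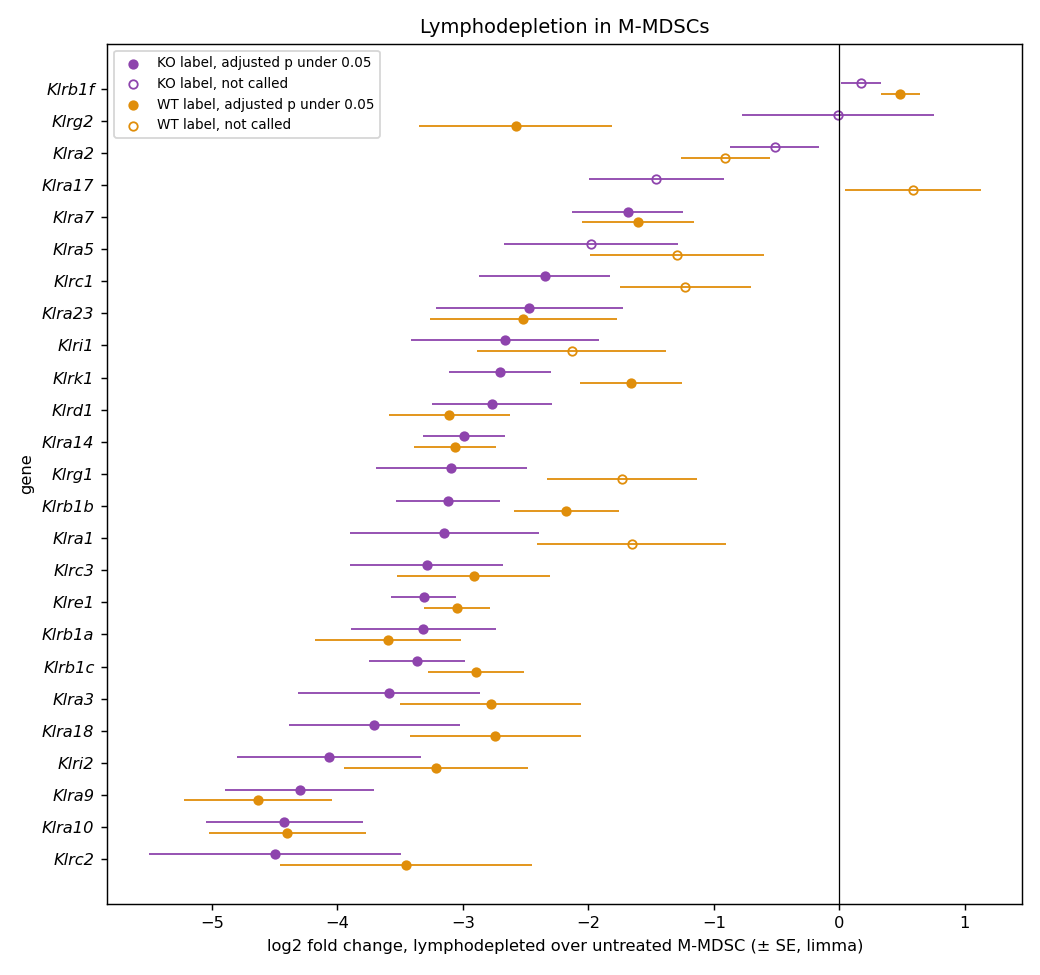
Log2 fold change (x axis, ± SE from limma) of each of the 25 tested genes in LD over UT M-MDSCs, for KO (purple) and WT (orange), with filled points where the adjusted p was under 0.05. Klrb1f lies right of 0 under both labels and Klra9 (−4.63) in WT and Klrc2 (−4.50) in KO lie farthest left.

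NK markers moved with these genes. Of the 17 listed NK markers found in the table, all tested and none of them a Klr gene, 15 were called lower in LD KO and 12 in LD WT M-MDSCs. Ncr1, which encodes the NK receptor NKp46, had 171, 70.5 and 183 in LD KO against 1248, 1694 and 1321 in UT KO, and 69.3, 27.1 and 24.1 in LD WT against 351, 378 and 327 in UT WT M-MDSCs. Leaving out Cd244, which was also high in PMN-MDSCs and was set aside after its values were seen, the 16 markers summed to 725 to 2122 in LD KO, 9226 to 12680 in UT KO, 385 to 760 in LD WT and 2390 to 2723 in UT WT M-MDSCs. The 34 receptor genes other than Klra2, Klra17 and Klrb1f summed to 305 to 864 in LD KO, 4288 to 5245 in UT KO, 123 to 336 in LD WT and 1201 to 1440 in UT WT M-MDSCs. Receptors over markers gave 0.407 to 0.421 in LD KO, 0.414 to 0.471 in UT KO, 0.320 to 0.541 in LD WT and 0.482 to 0.529 in UT WT M-MDSCs. The ratio was taken only with Klra2, Klra17, Klrb1f and Cd244 left out, and these were left out with their values known. Its range is thus in part set by that choice, and it does not measure how closely receptors followed markers. With Cd244 kept, the 17 markers summed to 1172 to 2748 in LD KO and 10310 to 14440 in UT KO M-MDSCs. The same sum was 1197 to 2333 in LD WT and 5251 to 5677 in UT WT M-MDSCs. Every one of the 16 markers had reads in all 4 M-MDSC groups.

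In PMN-MDSCs the 16 markers summed to 436 to 845 in LD KO, 1093 to 3030 in UT KO, 218 to 392.3 in LD WT and 566 to 621 in UT WT libraries, and Cd160 had no reads in LD WT. The ratio there was 0.475 to 0.735 in LD KO, 0.351 to 0.486 in UT KO, 0.392 to 0.742 in LD WT and 0.524 to 0.606 in UT WT libraries. The summed lymphocyte markers were also lower in LD M-MDSCs, though single T cell markers were mostly not called in WT. Of 11 tested T cell markers, 7 were called lower in LD KO and 1, Lck, in LD WT M-MDSCs, where 5.52% and 8.82% of all genes were. Of 9 tested B cell markers, 9 were called lower in LD KO and 7 in LD WT M-MDSCs. In PMN-MDSCs 4 of 9 B cell markers were called lower in LD KO and 9 in LD WT, and 0 and 2 of 10 T cell markers. Of all genes there, 0.224% were called in either direction in KO and 6.73% were called lower in WT. The 11 T cell markers in the table summed to 189 to 612 in LD KO, 1152 to 1966 in UT KO, 117 to 196 in LD WT and 315 to 466 in UT WT M-MDSCs, and 10 B cell markers to 128 to 171 in LD KO, 957 to 1548 in UT KO, 94.8 to 136 in LD WT and 501 to 589 in UT WT M-MDSCs. The part that NK or T cells in the sorted samples had in the receptor counts was not tested, and fewer cells of a type cannot be told apart from less RNA per cell. Klrb1f was higher in LD than in UT M-MDSCs under both labels, but was called in WT only, and that call was lost in most fits that left out a single library.

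**Figure D4:**
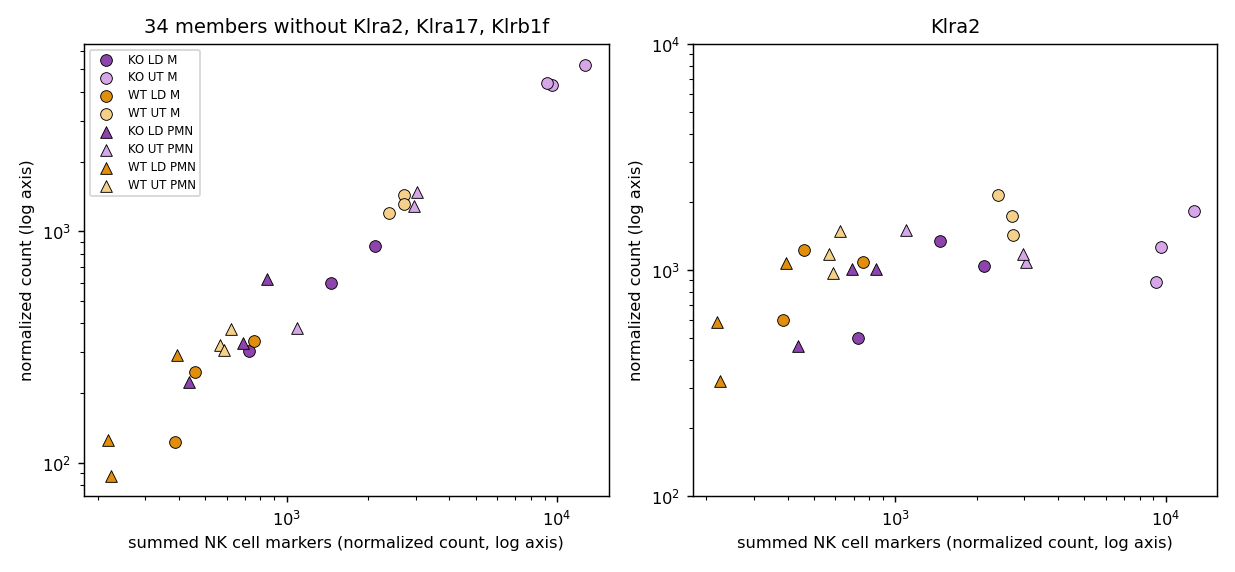
Summed normalized count of the 34 receptor genes without Klra2, Klra17 and Klrb1f (left) and normalized count of Klra2 (right) against the summed count of 16 NK markers, per library, on log axes (circles M-MDSCs, triangles PMN-MDSCs). The 34-gene sum runs from 88.2 to 5245 along the NK markers, while Klra2 stays between 324 and 2145. The genes left out of the sum and of the markers were chosen with their values known.

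In PMN-MDSCs few of these changes passed the test. In KO PMN-MDSCs 0 of the 20 tested genes were called, where 0.224% of all 12971 genes were, and 3 had an unadjusted p under 0.05, as had 10.2% of all genes (edgeR and DESeq2 called 0 each). In WT PMN-MDSCs 2 of 20 were called lower, Klra17 and Klri2, where 6.73% of all genes were called lower and 10.9% in either direction. This share is near the background. Klri2 had 26.5, 16.1 and 12.4 in LD KO against 59.3, 153 and 91 in UT KO, and 9.63, 0 and 0 in LD WT against 33, 24 and 13.1 in UT WT PMN-MDSCs. It fell with a log2 change of −3.38 ± 0.92 in WT, without overlap, and changed by −2.36 ± 0.92 in KO, not called. The WT values are near the floor, from 3, 0 and 0 reads in LD and 27, 20 and 6 in UT libraries. LD WT replicate 1 was the shallowest library (3249647 reads). The WT call held without LD WT replicate 1 and was lost without any 1 of the other 5 libraries (adjusted p 0.0620 to 0.120). The count of 2 became 4 without LD WT replicate 2, 1 without UT WT replicate 3, and 0 without LD WT replicate 3 or UT WT replicate 1 or 2.

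The direction in PMN-MDSCs was nonetheless mostly down, with 17 of 20 genes below 0 in KO (median log2 change −1.17) and 16 of 20 in WT (−1.50), against medians of −0.07 and −0.20 over all genes tested. Klrk1 had 95.8, 6.79 and 42.3 in LD KO against 79.1, 176 and 298 in UT KO, and 9.63, 62.1 and 1.84 in LD WT against 66.1, 52.8 and 43.5 in UT WT PMN-MDSCs, overlapping under both labels. Klrb1c had 28.5, 23.8 and 50.6 in LD KO against 27.2, 214 and 159 in UT KO, and 12.8, 0 and 7.35 in LD WT against 40.4, 24 and 58.8 in UT WT libraries. Its change in WT, −3.02 ± 0.95, was not called by limma (adjusted p 0.0528), and was called by DESeq2 and once LD WT replicate 1 was left out (adjusted p 0.0207). Klra9 had 14.3, 22.1 and 9.29 in LD KO against 32.1, 103 and 78.2 in UT KO, and 0, 21.3 and 0 in LD WT against 15.9, 27.6 and 15.2 in UT WT libraries. UT KO replicate 1 was low for each of these 3 genes, and it was also the lowest of its group in the NK markers (1093, against 3030 and 2972).

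The spread within PMN-MDSC groups was wide for the other receptors too. Klrd1 had 104, 25.5 and 6.19 in LD KO against 24.7, 118 and 109.8 in UT KO, and 0, 48.2 and 10.1 in LD WT against 47.7, 40.8 and 32.6 in UT WT PMN-MDSCs. Klre1 had 56.1, 23.8 and 33 in LD KO against 22.2, 112 and 138 in UT KO, and 9.63, 18.6 and 0.918 in LD WT against 31.8, 8.4 and 8.71 in UT WT libraries. Klra10 had 5.1, 4.25 and 9.29 in LD KO against 29.7, 88.6 and 27.7 in UT KO, and 22.5, 19.5 and 0 in LD WT against 24.5, 13.2 and 0 in UT WT libraries. Klra10 was the member with non-overlapping KO libraries among these, and its change of −2.63 ± 1.31 was not called. Klra14 had 52, 10.2 and 19.6 in LD KO against 14.8, 135 and 129 in UT KO, and 9.63, 18.6 and 10.1 in LD WT against 23.2, 15.6 and 4.35 in UT WT libraries. Klra7 had 65.2, 16.1 and 36.1 in LD KO against 7.42, 59.4 and 40.6 in UT KO, and 16.1, 18.6 and 11 in LD WT against 13.5, 7.2 and 4.35 in UT WT libraries. In WT the Klra7 counts were higher in LD on average, 15.2 ± 3.83 against 8.34 ± 4.66 (SD, n = 3 each), with overlap.

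The 3 Klrc genes had 4.08 to 38.7 normalized counts in LD and 4.95 to 45.3 in UT KO PMN-MDSCs, and 0 to 32.1 in LD and 1.20 to 21.8 in UT WT PMN-MDSCs. Klrb1b had 25.5, 15.3 and 47.5 in LD KO against 12.4, 86.6 and 22.8 in UT KO, and 0, 23.2 and 3.67 in LD WT against 12.2, 13.2 and 0 in UT WT libraries. Klrg1 had 26.5, 12.7 and 0 in LD KO against 0, 26.2 and 47.5 in UT KO, and 0, 17.6 and 5.51 in LD WT against 6.12, 20.4 and 41.4 in UT WT libraries. Klra3 had 2.04, 0.849 and 11.3 in LD KO against 7.42, 40.3 and 29.7 in UT KO, and no reads in LD WT against 1.22, 12 and 8.71 in UT WT libraries. Klrb1b, Klrg1 and Klra3 overlapped under the KO label. Klra1, Klra18, Klra23, Klrb1a and Klrg2 did not pass the filter in PMN-MDSCs.

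The genotype labels were compared next, to ask how receptor transcripts differ with the IL-6 label, whose own gene runs against it. In UT M-MDSCs 7 of the 25 tested genes were called, all higher in KO, where 2.24% of all 11570 genes were called higher and 4.03% in either direction. They were Klrk1 (2.04 ± 0.41), Klrb1c (2.02 ± 0.38), Klrc1 (2.05 ± 0.52), Klra7 (2.0 ± 0.45), Klre1 (1.56 ± 0.26), Klra14 (1.55 ± 0.32) and Klrb1f (0.69 ± 0.16). For 22 of the 25 genes all 3 UT KO libraries lay above all 3 UT WT libraries, as they did for 16.1% of all genes tested. Klrk1, for example, averaged 811 ± 5.59 in UT KO and 197 ± 14.5 in UT WT M-MDSCs, and Klrb1c 767 ± 179.5 in UT KO and 186 ± 18.8 in UT WT M-MDSCs (SD, n = 3 each). The exceptions were Klra2, which overlapped, Klrg2, which was lower in all 3 KO libraries (−2.63 ± 0.77, not called), and Klra23, which overlapped.

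NK markers stood beside this difference as well, with 10 of 17 called higher in UT KO M-MDSCs, and T cell markers with 7 of 11. UT KO M-MDSCs also serve as the untreated side of the KO lymphodepletion comparison, so the 2 comparisons share their libraries. The count of 7 rested on every library. It was 1, 4 and 2 without UT KO replicates 1, 2 and 3, and 2, 1 and 0 without UT WT replicates 1, 2 and 3, while edgeR called 14 and DESeq2 18. Klre1 was called in 5 of those 6 fits and lost without UT WT replicate 3 (adjusted p 0.0563). Klra7, Klrb1f and Klrc1 were lost in all 6, with adjusted p of 0.0509 to 0.157. Fitted over all 24 libraries, none of the 25 was called.

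After lymphodepletion no receptor was called between the labels. In LD M-MDSCs 0 of 25 genes were called by limma and by edgeR, where 0.207% of all genes were, although 12 had an unadjusted p under 0.05, as had 9.34% of all genes, and DESeq2 called 6. The change was 2.32 ± 0.59 for Klra9, 1.92 ± 0.45 for Klra7, 1.62 ± 0.32 for Klra14 and 1.29 ± 0.26 for Klre1. Without LD KO replicate 2, which was low in the 34-gene sum (305, against 599 and 864), 3 genes were called, and likewise 3 without LD WT replicate 1. Klra7 (adjusted p 0.0114) and Klre1 (0.0277) were among the first set, and Klra14 (0.0273) and Klra9 (0.0319) among the second. In LD PMN-MDSCs 0 of 20 were called by limma (0.0154% of all genes), and 6 had an unadjusted p under 0.05 (8.3% of all genes). In UT PMN-MDSCs 0 of 20 were called (0.00771% of all genes), and 3 had an unadjusted p under 0.05 (3.61% of all genes). EdgeR and DESeq2 called none in either. Medians were 1.15 in LD M-MDSCs, 1.49 in LD and 1.45 in UT PMN-MDSCs, against 0.01, 0.04 and −0.05 over all genes tested.

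Between the cell types, most receptors were higher in M-MDSCs of untreated mice. In UT KO mice 17 of 25 tested genes were called higher and Klra17 lower in M-MDSCs, where 20.3% of all 13457 genes were called higher, 23.6% lower and 43.8% in either direction. In UT WT mice 16 were called higher and Klra17 lower, where the shares were 22.2%, 28.3% and 50.5%. Some genes, such as Klra1 and Klra18, passed the filter only through the UT KO M-MDSC libraries, which in part sets the count in KO. Among those called under both labels were Klra7 (2.67 ± 0.67 in KO and 2.36 ± 0.67 in WT), Klrb1c (2.93 ± 0.76 and 2.23 ± 0.76), Klre1 (2.24 ± 0.71 and 2.99 ± 0.71) and Klri2 (2.13 ± 0.85 and 2.21 ± 0.85). Klrk1 was called in KO (2.33 ± 0.83) and not in WT (1.86 ± 0.83, adjusted p 0.0657), although all 3 M-MDSC libraries were above all 3 PMN-MDSC libraries there too. Klra2 and Klri1 were called in neither. Klra7 held under both labels without any 1 library, Klre1 was lost in KO without PMN-MDSC replicate 1 (adjusted p 0.118), and Klrb1c in WT without PMN-MDSC replicate 2 (0.0731). Klri2 was lost without most single libraries under both labels (0.0611 to 0.147), and Klrk1 in KO without any 1 M-MDSC library or PMN-MDSC replicate 1 (0.0591 to 0.129).

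After lymphodepletion the cell types differed in fewer genes. In LD KO mice Klrb1f was called higher and Klra17 lower in M-MDSCs (23.8% of all genes higher, 23.6% lower, 47.4% in all). In LD WT mice Klrb1c (2.36 ± 0.76), Klrb1f, Klri2 (2.37 ± 0.85) and Klrk1 (2.33 ± 0.83) were called higher and Klra17 lower (19.4%, 19.9% and 39.3% of all genes). Klrb1f and Klra17 held in LD WT mice without any 1 library, while Klrb1c was lost without M-MDSC replicate 1 or PMN-MDSC replicate 2 (adjusted p 0.0608 and 0.150), Klri2 without M-MDSC replicate 1 or 2 or PMN-MDSC replicate 2 or 3 (0.112 to 0.159) and Klrk1 without M-MDSC replicate 1 or 2 or PMN-MDSC replicate 1 or 3 (0.0534 to 0.200). NK markers followed a like order, with 12 of 17 called higher in M-MDSCs of UT KO, 11 in UT WT, 3 in LD KO and 4 in LD WT mice. The counts moved with single libraries. In UT KO mice 10, 8 and 10 genes were called without M-MDSC replicates 1, 2 and 3 and 7 without PMN-MDSC replicate 1. In UT WT mice it was 8 and 11 without M-MDSC replicates 1 and 3 and 11 without PMN-MDSC replicate 2, and in LD WT mice 2 and 3 without M-MDSC replicates 1 and 2.

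**Figure D5:**
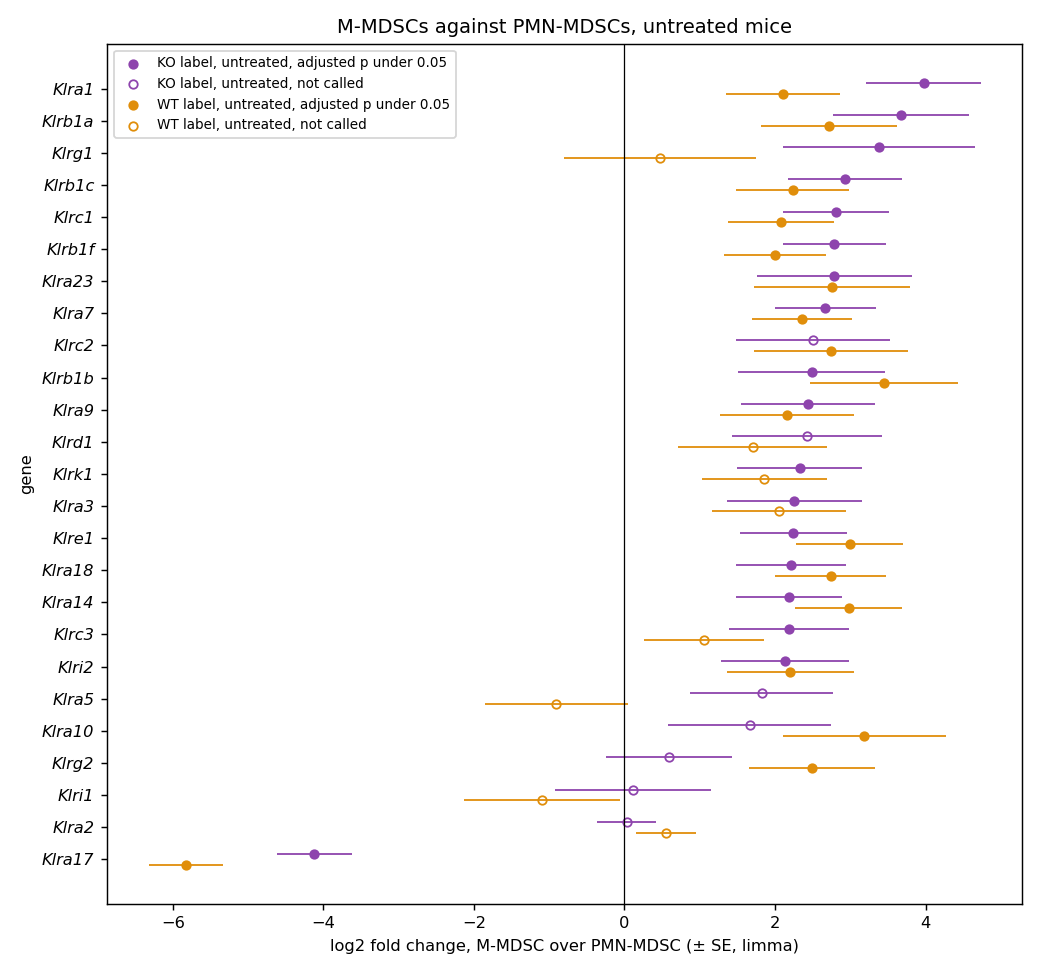
Log2 fold change (x axis, ± SE from limma) of each of the 25 tested genes in M-MDSCs over PMN-MDSCs of untreated mice, for KO (purple) and WT (orange), with filled points where the adjusted p was under 0.05. Klra17 lies far left at −4.12 in KO and −5.83 in WT, while the other 17 genes called in KO and 16 called in WT lie right of 0.

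Whether these responses differ between labels or cell types was tested by interaction terms. None of the 25 genes in M-MDSCs and none of the 20 in PMN-MDSCs was called for a difference in the LD response between KO and WT, where 0.00864% and 0% of all genes were. An unadjusted p under 0.05 was reached by 2 genes in M-MDSCs, Klrg2 (2.57 ± 1.09) and Klra17 (−2.04 ± 0.76), and by 0 in PMN-MDSCs, against 12.2% and 8.54% of all genes, and edgeR and DESeq2 called 0 in both. None was called for a difference in the LD response between M-MDSCs and PMN-MDSCs, in KO (0.0966% of all genes called) or in WT (0.788% of all genes called). In KO 7 genes had an unadjusted p under 0.05, against 7.66% of all genes, and in WT 6, against 14.8%. In WT DESeq2 called 1 and edgeR 0. The largest such terms were −3.46 ± 1.13 for Klrc3 in KO and −4.54 ± 1.54 for Klra10 in WT, which passed without LD WT PMN-MDSC replicate 3 (adjusted p 0.0338). That M-MDSCs had many calls and PMN-MDSCs few is thus not shown to be a difference in response.

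The partners of the receptors were followed through lists of genes. Of 20 tested genes for adaptors and proximal signalling, 7 were called lower in LD KO and 6 in LD WT M-MDSCs and 0 higher, where 5.52% and 8.82% of all genes were called lower. They included Cd247, the zeta chain (−2.55 ± 0.37 in KO and −1.91 ± 0.37 in WT), Zap70, the kinase it recruits (−1.98 ± 0.30 and −2.15 ± 0.30), and Lat, the T cell scaffold (−1.92 ± 0.41 and −1.34 ± 0.41). Fyn was also called under both labels, and the kinases Syk (−0.46 ± 0.12) and Lyn (−0.57 ± 0.18) in WT. How these further calls held without single libraries is not given. The Lat call in WT was lost without LD replicate 1 or 2 or UT replicate 1 or 2 (adjusted p 0.0648 to 0.156). Tyrobp, which encodes DAP12, the adaptor of activating Ly49 receptors and also of myeloid receptors, had 1147, 749 and 1225 in LD KO against 1831, 1927 and 895 in UT KO, and 1495, 962 and 1291 in LD WT against 981, 1240.0 and 1126 in UT WT M-MDSCs. It overlapped under both labels and was called in neither, though it passed as lower in LD KO without UT KO replicate 3 (adjusted p 0.0129). Hcst, which encodes DAP10, the adaptor of NKG2D, fell in KO M-MDSCs (−1.33 ± 0.39) with 19.8 ± 9.38 in LD and 51.8 ± 25.6 in UT libraries (SD, n = 3 each), a call lost without LD replicate 2 or 3 or UT replicate 1 or 2 (adjusted p 0.0627 to 0.196). In WT M-MDSCs it averaged 27.4 ± 5.25 in LD and 33.1 ± 4.56 in UT libraries, not called. In PMN-MDSCs 3 of 19 were called lower in LD WT (Cd247, Inpp5d and Syk), where 6.73% of all genes were, and 0 in LD KO. Each of these 3 calls was lost without UT WT replicate 1, 2 or 3, and also without LD WT replicate 1 or 2 for Cd247, 3 for Inpp5d and 2 or 3 for Syk (adjusted p 0.0612 to 0.146), and with edgeR.

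Of the ligands, Ulbp1, which encodes the NKG2D ligand MULT1, rose in LD WT M-MDSCs. It had 91.2, 198 and 98.4 in LD KO against 39.9, 27.1 and 84.3 in UT KO, and 77.7, 75.8 and 110.3 in LD WT against 31.4, 21.6 and 10.4 in UT WT M-MDSCs. The libraries did not overlap under either label, and the log2 change was 2.11 ± 0.45 in WT (adjusted p 0.00591) and 1.41 ± 0.45 in KO, not called (adjusted p 0.0606) unless UT KO replicate 3 was left out (0.0125). Clec2i, which encodes a Clec2 ligand of NKR-P1 receptors, was the other of 10 tested ligands called in WT, lower, at a log2 change of −0.72 ± 0.19, and 0 of 10 were called in KO. That made 2 of 10 in WT, where 18.3% of all genes were called, and the Clec2i call was lost without LD replicate 3 or UT replicate 1 or 3 (adjusted p 0.0588 to 0.0895). Clec2d, the ligand of Klrb1b, averaged 320.2 ± 64.3 in LD KO against 595 ± 142 in UT KO, and 329.5 ± 131 in LD WT against 405 ± 65.2 in UT WT M-MDSCs, called in neither, though it passed as lower in LD KO without LD KO replicate 1 (adjusted p 0.0496) or UT KO replicate 3 (0.0216). In LD WT PMN-MDSCs 2 of 10 ligands were called lower, H2-D1, a class I ligand of Ly49 receptors (−0.84 ± 0.22), and H60c (−3.63 ± 0.99), where 6.73% of all genes were, and 0 in LD KO. Both calls were lost without UT WT replicate 1, 2 or 3, and that of H60c also without LD WT replicate 2 or 3 (adjusted p 0.0526 to 0.110). The Raet1 genes were listed at or near 0 in most groups, with Raet1b and Raet1c at 0 in all 8.

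Of 9 other tested lectin-like receptors of the same cluster, 1 was called in LD KO and 3 in LD WT M-MDSCs, where 11.6% and 18.3% of all genes were. Clec12a, an inhibitory receptor of myeloid cells, rose in LD KO (0.73 ± 0.15) and LD WT (0.66 ± 0.15) M-MDSCs. Olr1, the receptor LOX-1 for oxidised lipoprotein, rose in LD WT M-MDSCs (1.30 ± 0.35), a call lost without LD or UT replicate 1 or 3 (adjusted p 0.0588 to 0.0891), and 0 of 9 in KO and Clec2i in WT were called lower. In LD WT PMN-MDSCs Clec7a, which encodes the fungal receptor Dectin-1 (−1.54 ± 0.32), and Clec12b (−4.50 ± 1.11) fell, 2 of 10 tested, where 6.73% of all genes were called lower. The Clec7a call was lost without UT WT replicate 1 or 2 (adjusted p 0.0664 and 0.0581), and that of Clec12b without LD WT replicate 3 or any 1 UT WT library (0.0646 to 0.0887). With all 24 libraries in 1 fit, the M-MDSC calls of Zap70, Lat and Clec12a under both labels, of Hcst in KO and of Cd247, Ulbp1, Clec2i and Olr1 in WT were lost. These lists were not compared with other genes by a set test.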

How the data were processed

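Total RNA libraries were made from 100 ng of RNA of sorted spleen M-MDSCs and PMN-MDSCs, with ribosomal RNA reduced by probes, per the labels' protocols. STAR 2.5.3a, HTSeq 0.6.1, DESeq2 (version not given) and the mm10 build are named in the submitters' processing notes. The authors deposited 1 table of normalized counts, a signal in which each gene's reads are divided by a size factor of the library. All values (100% within 0.001) were whole reads times 1 factor per library, so reads were recovered for depth and for count tests.

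The unit is not a raw count, so limma 3.58.1 (R 4.3.3) was the main test, on log2(normalized count + 1) with an intensity trend, 1 mean per group, two-sided. Genes needed 10 normalized counts in 3 fitted libraries. M-MDSC and PMN-MDSC libraries (12 each) were fitted apart, and all 24 together for comparisons across cell types. Benjamini-Hochberg adjustment ran over all genes tested and calls needed an adjusted p under 0.05. Every ± after a log2 change is its SE, and other ± are SD with n = 3. Folds on this scale understate changes of low genes. The fits were run on simulated data with 1 dispersion for all genes and changes only in genes of higher level. That run does not cover genes of low level or wide spread.

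The 16 comparisons were LD against UT, KO against WT, M-MDSC against PMN-MDSC, and their interactions. Alternatives were pseudocounts of 0.5 and 5, no filter, TMM scaling, count tests with edgeR 4.0.16 and DESeq2 1.42.0, a block for the replicate number, a fit over another set of libraries, and each library left out once. Leaving out the 3 shallowest PMN-MDSC libraries was added after seeing the data. The genes, gene lists and tests were chosen with earlier results of these data known. Genes of the family are described by name where a group mean reached 50 normalized counts or a comparison called them, and others briefly. Labels do not state whether each library is 1 mouse, so p-values measure the spread between these samples. A count of 0 allows up to 3 reads, for counting error only. Positions, transcripts and shared 50-base stretches come from GENCODE vM21, and upstream windows from RefSeq (GRCm38.p6).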

Additional observations from a re-analysis of the deposited data

How the results depend on the processing

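Direction was recomputed for 146 gene changes called or described, in 15 of the 16 comparisons, and not for other tested genes. Of these, 1 turned, the uncalled Klra2 difference of M-MDSCs from PMN-MDSCs in UT KO mice (log2 0.03), which ran from −0.23 to 0.29 with 1 library left out (−0.23 without M-MDSC replicate 2, −0.07 and −0.01 without PMN-MDSC replicates 2 and 3). Genes of the family called with LD against UT M-MDSCs numbered 20 in KO (14 to 19 with 1 library left out, 12 with all 24 libraries in the fit) and 18 in WT (12 to 17, and 10 with all 24). In LD against UT WT PMN-MDSCs the 2 calls became 1 with no filter or TMM scaling, 0 with edgeR, 4 with DESeq2, 6 with all 24 libraries and 0 to 4 with 1 library left out. For KO against WT in UT M-MDSCs the 7 calls became 16 with a pseudocount of 5, 14 with edgeR, 18 with DESeq2, 0 with all 24 libraries and 0 to 4 with 1 library left out. In LD M-MDSCs the 0 calls became 6 with DESeq2 and 0 to 3 with 1 library left out. Between cell types the counts with 1 library left out were 7 to 19 in UT KO (18 in full), 8 to 13 in UT WT (17), 2 to 3 in LD KO (2) and 2 to 6 in LD WT (5). Without the 3 shallowest PMN-MDSC libraries UT KO gave 10, and with the cell types' own libraries only LD WT gave 2. The interaction of cell type and LD in WT gave 1 call with DESeq2 and 0 to 1 with 1 library left out, against 0. The other interactions, KO against WT in PMN-MDSCs and LD against UT in KO PMN-MDSCs stayed at 0 with every alternative. The cause of these moves was not tested.

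In none of 12 group pairs was every correlation between same-numbered replicates over 0.1, so the main fits used no pairing. Single correlations ran from −0.176 to 0.221, the highest between LD KO M-MDSCs and PMN-MDSCs. These values do not show whether same-numbered libraries share mice. With the replicate number as a block 4 genes were called for KO against WT in UT M-MDSCs, 18 for LD against UT in KO and 16 in WT M-MDSCs, and the other counts were those without it. TMM scaling moved the median log2 change of all genes by 0.11 in LD against UT WT PMN-MDSCs, by 0.14 and 0.13 between the cell types in UT WT and UT KO mice, and by −0.11 for the interaction of cell type and LD in KO. Calls kept without any 1 library, in the fits where the gene was tested, numbered 16 of 20 for LD in KO and 10 of 18 in WT M-MDSCs. In PMN-MDSCs 17 of the 37 genes, and in M-MDSCs 12, did not reach the filter, and nothing is shown about them at this depth.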
